A study of Homo sapiens with 12 samples.

Results

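GOT1, the cytosolic aspartate aminotransaminase, was examined together with 9 genes that act beside it in the malate-aspartate shuttle and in its non-canonical use for NADPH production. The 10 genes (GOT1, GOT2, MDH1, MDH2, ME1, ME2, SLC25A11, SLC25A12, SLC25A13 and SLC25A22) were taken by symbol from the 58721 genes of the deposited tables, and each symbol matched 1 row. RNA-seq was performed on 12 libraries of Pa-Tu-8902 and MIA PaCa-2, human pancreatic ductal adenocarcinoma (PDA) lines. All cells, controls included, carried a doxycycline (dox)-inducible short hairpin RNA against GOT1 (iDox-shGOT1), introduced by lentivirus with drug selection. In each line, 3 libraries came from cells without dox (untreated) and 3 from cells given dox for 5 days before RNA extraction. The labels give the dox concentration as 1 µM/mL, while the methods of the study name a weight per volume. No library of cells with a non-targeting hairpin was used here, so effects of dox itself and of GOT1 loss cannot be told apart. The sources do not say whether replicates were separate cultures, and the p-values therefore measure the spread between these libraries, which may be technical. The lines were assigned by the deposited titles. A supplementary count sheet of the study, seen here in part, carries under Pa-Tu-8902 names the per-library counts that were deposited under MIA PaCa-2 titles, while the group means in that sheet go with the libraries titled Pa-Tu-8902.

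The malate-aspartate shuttle moves the electrons of cytosolic NADH into mitochondria without moving NADH itself. GOT1 converts aspartate and α-ketoglutarate into oxaloacetate and glutamate, MDH1 reduces the oxaloacetate to malate, and malate enters mitochondria in exchange for α-ketoglutarate through SLC25A11. There, MDH2 oxidizes malate back to oxaloacetate, GOT2 turns it into aspartate, and SLC25A12 or SLC25A13 exports the aspartate in exchange for glutamate. SLC25A22 imports glutamate with a proton. ME1 in the cytosol and ME2 in mitochondria oxidize malate to pyruvate and form NADPH or NADH, and PDA cells have been described to route aspartate through GOT1, MDH1 and ME1 to make NADPH.

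The measurements are transcript levels only. Total counts per library were 26226537 to 43406137, and a count of 0 allows up to 3 counts, a limit that covers counting error only. Levels are given as TPM, a unit of transcript abundance normalized for transcript length and library depth, and fold changes were fitted to the expected counts by edgeR's quasi-likelihood test. A gene was called where the Benjamini-Hochberg adjusted p was below 0.01 and the fold change at least 1.5, the thresholds of the study. All 120 counts of the 10 genes in the 12 libraries were whole to within 0.005, so no fractional assignment of reads between these genes and others is visible. The sources used here name no strand setting for the counting, so reads of genes that overlap on the opposite strand (WDPCP at MDH1, HAT1 at SLC25A12, RNF167 at SLC25A11 and PANO1 at SLC25A22) may not be told apart. Both lines expressed keratins (KRT8, KRT18 and KRT19). All 6 epithelial markers examined reached 1 TPM in every Pa-Tu-8902 library, and 3 of 6 did in MIA PaCa-2, where CDH1, EPCAM and ESRP1 stayed under 1 TPM. The summed level of the mesenchymal markers VIM, ZEB1, CDH2 and SNAI2 was 6.69 to 16.05 TPM in Pa-Tu-8902 and 3540 to 4230 TPM in MIA PaCa-2. The MIA PaCa-2 sum was nearly all VIM, which with ZEB1 was called lower in untreated Pa-Tu-8902 than in untreated MIA PaCa-2, while CDH2 and SNAI2 were called higher there. CDH2 had at most 1 count in an untreated MIA PaCa-2 library and was testable only through Pa-Tu-8902, so its call adds nothing to the counts. Leukocyte and endothelial markers summed to at most 9.82 and 1.14 TPM. The fibroblast list summed to 3.76 to 21.33 TPM in Pa-Tu-8902 and to 192 to 398 TPM in MIA PaCa-2, where COL1A2 alone of its 4 genes reached 1 TPM in every library. With dox in Pa-Tu-8902, CDH1, COL1A1 and VWF (at most 82 counts in a library) were called higher and SNAI2 and CD68 lower, and in MIA PaCa-2 SNAI2 and COL1A2 were called higher and KRT19 lower. The part of these markers in the results was not tested.

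The bases just upstream of 4 of the genes are shown because GOT1 is the targeted gene and SLC25A13, SLC25A22 and ME1 were the other members whose level passed the adjusted p in both lines or moved differently in the lines. Each runs 5′ to 3′ on the strand of the gene, here the minus strand, and comes from the 250 bases before the RefSeq start (RefSeq table, GRCh38.p14). The SLC25A13 run is shorter, 201 bases, because GENCODE starts that gene upstream of the RefSeq start, and it ends before the GENCODE start. Capitals mark matches on either strand to CCAAT (the CCAAT box), TGATGNAA (the C/EBP-ATF element), TGACNNNGC (the core of the antioxidant element) and CACGTG (the E-box).
GOT1, chr10:99430625-99430874: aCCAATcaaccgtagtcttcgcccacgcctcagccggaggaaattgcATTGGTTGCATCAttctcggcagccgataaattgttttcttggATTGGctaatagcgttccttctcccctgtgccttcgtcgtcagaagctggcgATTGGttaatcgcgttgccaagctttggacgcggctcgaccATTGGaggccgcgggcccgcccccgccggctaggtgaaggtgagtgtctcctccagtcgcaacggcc
SLC25A13, chr7:96322148-96322348: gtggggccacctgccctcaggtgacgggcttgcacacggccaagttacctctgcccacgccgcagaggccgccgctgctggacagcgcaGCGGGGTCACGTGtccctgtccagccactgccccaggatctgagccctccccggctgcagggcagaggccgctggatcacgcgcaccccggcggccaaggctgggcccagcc
ME1, chr6:83431052-83431301: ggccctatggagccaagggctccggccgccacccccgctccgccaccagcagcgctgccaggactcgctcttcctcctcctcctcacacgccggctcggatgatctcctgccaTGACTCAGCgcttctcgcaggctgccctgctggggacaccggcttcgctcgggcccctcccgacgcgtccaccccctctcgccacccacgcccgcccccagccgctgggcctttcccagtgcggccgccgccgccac
SLC25A22, chr11:798282-798531: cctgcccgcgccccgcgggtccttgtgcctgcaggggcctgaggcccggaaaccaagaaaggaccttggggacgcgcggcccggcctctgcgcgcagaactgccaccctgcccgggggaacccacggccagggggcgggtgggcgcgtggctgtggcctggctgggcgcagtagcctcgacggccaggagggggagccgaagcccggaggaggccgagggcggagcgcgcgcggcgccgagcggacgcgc
The GOT1 window held 5 matches to CCAAT, of which 4 were on the opposite strand, and 1 match to the C/EBP-ATF element. Of 34943 windows of 250 bases in the same table, 32.0% held CCAAT and 3.15% held the C/EBP-ATF element. The ME1 window held 1 antioxidant element, starting 137 bases before the RefSeq start, and 10.9% of all windows held this motif. In SLC25A13 an antioxidant element on the opposite strand overlapped an E-box, a motif present in 6.32% of all windows, and its whole window also held 1 CCAAT, which reaches past the end of the bases printed. The SLC25A22 window had no match to any of the 4 motifs. SLC25A22 has 4 windows in the RefSeq table, and only that of the most upstream start was searched. MDH1, with 2 windows, was treated in the same way. Among the genes not printed, GOT2 held 1 antioxidant element, SLC25A11 held 1 C/EBP-ATF element, ME2 held 2 matches to CCAAT and MDH1 held 1. No match was found for MDH2 and SLC25A12. The motifs were thus not confined to the printed genes. These are matches of letters, and binding was not measured here.

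GOT1 is a minus-strand gene of chromosome 10, at 99396870 to 99430624 (GRCh38). As the target of the hairpin it was examined first in every library. In untreated Pa-Tu-8902 cells the GOT1 level was 78.3, 81.5 and 83.4 TPM in replicates 1 to 3, and in dox-treated cells it was 4.51, 3.29 and 3.68 TPM. In untreated MIA PaCa-2 cells it was 44.1, 38.9 and 42.7 TPM, against 1.68, 1.95 and 1.87 TPM with dox. All 6 dox-treated libraries lay below all 6 untreated libraries. Relative to the untreated mean of the line, 4.06% to 5.56% of the GOT1 level was left in Pa-Tu-8902 cells and 4.01% to 4.66% in MIA PaCa-2. The counts fell 24.9-fold in Pa-Tu-8902 (log2 fold change -4.64, standard error 0.09, adjusted p = 1.51e-09, edgeR) and 27.2-fold in MIA PaCa-2 (log2 fold change -4.76, standard error 0.11, adjusted p = 1.06e-09). The log2 fold changes of the lines differed by 0.13 (standard error 0.16, adjusted p = 0.620 for the interaction), within the error of the difference. Transcripts remained countable after knockdown, with 138 to 209 counts per Pa-Tu-8902 library and 63 to 110 per MIA PaCa-2 library, all far over 3 counts.

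GOT1 was the only one of the 10 genes called with dox in either line. The background was 16.3% of 14949 genes called in Pa-Tu-8902 and 12% of 14589 in MIA PaCa-2. Without the limit on fold change, 5 of the 10 passed the adjusted p in Pa-Tu-8902 (3 higher, 2 lower), where 38.1% of all tested genes passed, and 4 passed in MIA PaCa-2 (2 higher, 2 lower), where 27.2% passed. Counts of 5 and 4 in 10 genes were not read as differing from these shares. GOT1 fell in both lines and SLC25A13 and SLC25A22 rose in both. MDH1 rose and ME2 fell in Pa-Tu-8902, and ME1 fell in MIA PaCa-2. The median log2 fold change of the 10 genes was 0.02 in Pa-Tu-8902 cells and -0.07 in MIA PaCa-2 cells, beside 0.0014 and -0.0089 over all tested genes.

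**Figure D1:**
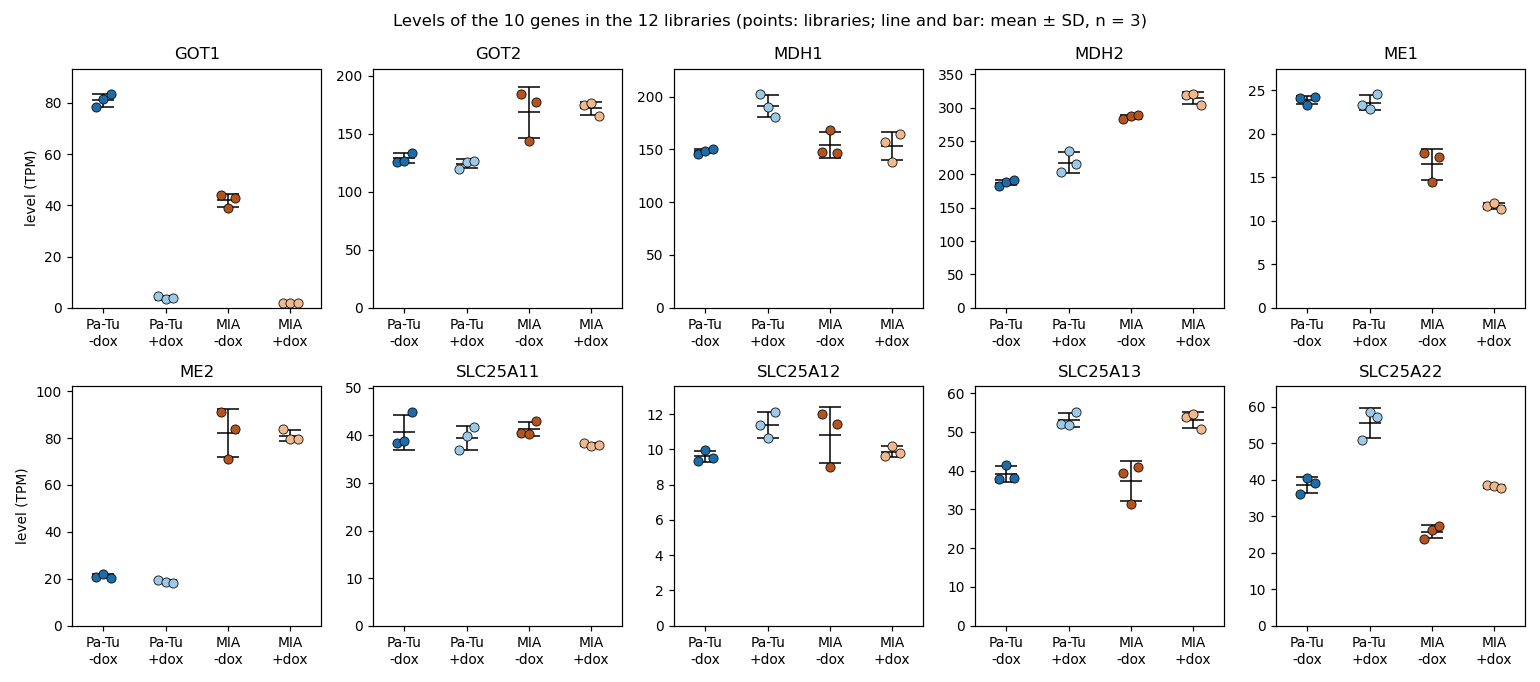
Level in TPM (vertical axis, from 0) of each of the 10 genes in every library, without (-dox) and with dox (+dox), of Pa-Tu-8902 (Pa-Tu) and MIA PaCa-2 (MIA); points are libraries, and the line and bar are the mean ± SD (n = 3). GOT1 dropped to between 1.68 and 4.51 TPM with dox, while the mean TPM of the other 9 genes with dox was 0.709 to 1.48 times the untreated mean. Some of these groups did not overlap, such as those of SLC25A13 and SLC25A22, higher in both lines, and of ME1, lower in MIA PaCa-2.

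The annotation holds 3 GOT1 transcripts, and they were compared because a hairpin acts on those that contain its target. GOT1-201 is the coding transcript, with 9 exons over the whole gene. GOT1-202 is a non-coding transcript of 2 exons at the 5′ end, and GOT1-203 a non-coding transcript of 3 exons (99397465 to 99403749) near the 3′ end. In GENCODE release 44, 557 of the 646 exon bases of GOT1-203 are also exon bases of GOT1-201, so most of its reads could come from either and their split is an estimate. GOT1-201 is 2923 bases long in the deposited files and 1978 bases in release 44.

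With dox, GOT1-201 fell from 56.3 ± 2.00 TPM to 2.32 ± 0.35 TPM in Pa-Tu-8902 and from 32.2 ± 1.39 TPM to 1.17 ± 0.22 TPM in MIA PaCa-2 (mean ± SD, n = 3 in each). GOT1-203 fell from 23.5 ± 2.51 to 1.297 ± 0.35 TPM in Pa-Tu-8902 and from 9.35 ± 2.89 to 0.597 ± 0.25 TPM in MIA PaCa-2. Both were called in both lines by edgeR's quasi-likelihood test over all transcripts. In MIA PaCa-2, GOT1-203 had 3.83, 6.98 and 4.71 counts with dox, close to the 3 counts that a 0 allows. Without dox it had 74.71 to 124.92 there. It thus passed the filter of 10 counts in 3 libraries only through the untreated group, and that call adds nothing to these counts. The log2 fold changes from counts in Pa-Tu-8902 were -4.66 (standard error 0.13, adjusted p = 1.36e-04) for GOT1-201 and -4.24 (standard error 0.26, adjusted p = 5.24e-04) for GOT1-203, where 2.81% of 52469 tested transcripts were called. In MIA PaCa-2 they were -4.87 (standard error 0.16, adjusted p = 3.44e-04) and -4.04 (standard error 0.41, adjusted p = 0.00478), where 1.44% of 49696 transcripts were called. The transcript calls were less stable than the gene calls. With the replicate number as a block, 1 of the 2 was called in Pa-Tu-8902 cells and 0 in MIA PaCa-2 cells, and leaving out any 1 MIA PaCa-2 library left 1.

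GOT1-202 had no more than 22.28 counts in an untreated library and was too low to test. It was at 0 in 2 of the 3 dox-treated libraries of each line, and at 0 in 1 untreated MIA PaCa-2 library as well. Of the summed TPM of GOT1, GOT1-201 made up 69.5% ± 2.59 without dox and 60.9% ± 7.54 with dox in Pa-Tu-8902 (SD, n = 3). In MIA PaCa-2 these shares were 77.1% ± 4.97 and 63.8% ± 10.91. The ranges overlapped in both lines, 66.7% to 71.8% against 54.1% to 69.0% and 71.4% to 80.7% against 54.9% to 75.9%. By expected counts, which do not divide by length, GOT1-201 held 93.8% and 91.0% in Pa-Tu-8902 and 95.7% and 91.9% in MIA PaCa-2.

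**Figure D2:**
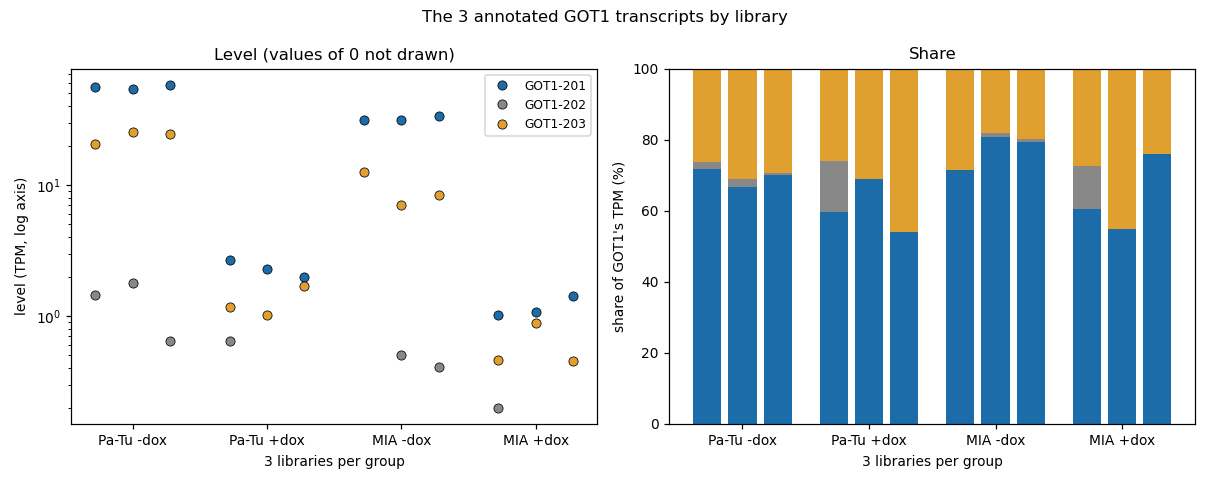
Left, level in TPM on a log axis of the 3 GOT1 transcripts in each library (values of 0 not drawn); right, their share of the summed GOT1 TPM in percent. GOT1-201 and GOT1-203 dropped together in all dox-treated libraries, and the share of GOT1-201 ranged from 54.1% to 80.7% over the 12 libraries.

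AL391684.1, a long non-coding RNA named GOT1-DT in GENCODE release 44, starts 290 bases away from the GOT1 start on the opposite strand and shares the region printed above. It was chosen from the annotation and is no member of the shuttle. Its counts were 20, 23 and 9 in untreated Pa-Tu-8902 and 48, 57 and 34 with dox. It rose 2.25-fold there (log2 fold change 1.17, standard error 0.32, adjusted p = 0.00986, edgeR). That adjusted p is just under the limit of 0.01, and this RNA was not refitted under other settings. In MIA PaCa-2 the counts were 38, 23 and 45 without dox and 57, 33 and 73 with dox, so the groups overlapped and the change did not pass (log2 fold change 0.67, standard error 0.29, adjusted p = 0.0804). The difference between the lines did not pass either (adjusted p = 0.451). Its level stayed under 1 TPM as a group mean throughout.

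GOT2, the mitochondrial aspartate aminotransaminase, is a minus-strand gene of chromosome 16 (58707131 to 58734342). Its level in Pa-Tu-8902 was 126, 127 and 134 TPM without dox and 120, 126 and 127 TPM with dox. Its level in MIA PaCa-2 was 184, 143 and 178 TPM without and 174, 176 and 166 TPM with dox. The groups overlapped in both lines, and the log2 fold changes from counts were -0.15 (standard error 0.06, adjusted p = 0.0761) in Pa-Tu-8902 and -0.02 (standard error 0.06, adjusted p = 0.859) in MIA PaCa-2, all from edgeR.

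Because GOT2 did not pass the test and GOT1 fell, the balance of the transaminase transcripts was compared within each library. GOT1 made up 38.6% ± 0.42 of the summed GOT1 and GOT2 TPM in untreated Pa-Tu-8902 and 2.998% ± 0.56 with dox (SD, n = 3). In MIA PaCa-2 it made up 20.01% ± 1.15 without and 1.06% ± 0.09 with dox. The ratio of GOT1 to GOT2 thus dropped 20.6-fold in Pa-Tu-8902 and 23.5-fold in MIA PaCa-2. Groups did not overlap in either line (two-sided exact permutation, p = 0.1, which no test of 3 against 3 libraries can go below). In all, 12 such ratio comparisons were made, for 4 pairs in 3 comparisons, and none can pass 0.05 in this design.

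MDH1, the cytosolic malate dehydrogenase, lies on the plus strand of chromosome 2 (63588609 to 63607197). In Pa-Tu-8902 its level was 146, 149 and 150 TPM without dox and 202, 190 and 181 TPM with dox, and the groups did not overlap. Its counts rose 1.19-fold (log2 fold change 0.25, standard error 0.05, adjusted p = 0.00123, edgeR). The change passed under 15 of 16 settings and was lost in 1 fit of all 12 libraries (adjusted p = 0.01296). The ratio of the mean TPM was 1.29. In MIA PaCa-2 the level was 148, 168 and 147 TPM without and 157, 138 and 165 TPM with dox, overlapping groups with a log2 fold change from counts of -0.07 (standard error 0.09, adjusted p = 0.538). The difference between the lines was 0.33 on the log2 scale (standard error 0.11) and did not pass (adjusted p = 0.0335). It passed with DESeq2 (adjusted p = 0.00981) and with no filter on low counts (adjusted p = 0.00579).

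MDH2, the mitochondrial malate dehydrogenase (plus strand of chromosome 7, 76048051 to 76067508), had the highest level of the 10 genes in all 4 groups. It stood at 183 to 192 TPM in untreated and 203 to 235 TPM in dox-treated Pa-Tu-8902, and at 283 to 288 and 305 to 320 TPM in MIA PaCa-2. The TPM groups did not overlap in either line, but the changes from counts did not pass (log2 fold change 0.14, adjusted p = 0.141 in Pa-Tu-8902 and 0.07, adjusted p = 0.464 in MIA PaCa-2, edgeR). The ratio of MDH1 to MDH2 was 0.791 ± 0.006 in untreated Pa-Tu-8902 and 0.882 ± 0.10 with dox, and 0.539 ± 0.041 and 0.489 ± 0.054 in MIA PaCa-2 (SD, n = 3). It was higher with dox in all 3 Pa-Tu-8902 libraries (two-sided exact permutation, p = 0.1), and the MIA PaCa-2 groups overlapped (p = 0.4).

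Of the 2 aspartate-glutamate carriers, SLC25A13 passed the adjusted p in both lines and SLC25A12 in neither. SLC25A13 (citrin, minus strand of chromosome 7, 96120220 to 96322147) was at 37.8, 41.6 and 38.2 TPM in untreated Pa-Tu-8902 and at 52.1, 51.8 and 55.1 TPM with dox. In MIA PaCa-2 it was at 39.3, 31.4 and 41.0 TPM without and 53.8, 54.7 and 50.7 TPM with dox. In both lines every dox-treated library lay above every untreated one. Its counts rose in Pa-Tu-8902 (log2 fold change 0.38, standard error 0.06, adjusted p = 2.85e-04) and, 1.42-fold, in MIA PaCa-2 (log2 fold change 0.51, standard error 0.07, adjusted p = 1.15e-04), both under the 1.5-fold limit (edgeR). The difference between the lines was -0.12 (standard error 0.09, adjusted p = 0.359).

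SLC25A12 (aralar, minus strand of chromosome 2, 171783405 to 171999859), the other isoform of the same carrier, was at a lower level. HAT1, which overlaps it, was at a mean of 96.0 to 118 TPM over the 4 groups. SLC25A12 was at 9.34 to 9.97 TPM in untreated and 10.7 to 12.1 TPM in dox-treated Pa-Tu-8902, and at 8.99 to 11.99 and 9.62 to 10.2 TPM in MIA PaCa-2. Neither change from counts passed (log2 fold change 0.16, adjusted p = 0.107, and -0.16, adjusted p = 0.112, edgeR), and the difference between the lines did not (0.32, standard error 0.11, adjusted p = 0.0403). The ratio of SLC25A12 to SLC25A13 fell with dox from 0.245 ± 0.005 to 0.215 ± 0.008 in Pa-Tu-8902 and from 0.290 ± 0.014 to 0.186 ± 0.007 in MIA PaCa-2 (SD, n = 3). That was a 1.14-fold and a 1.56-fold drop, with groups that did not overlap in either line (two-sided exact permutation, p = 0.1 in each).

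SLC25A11, the carrier of malate and α-ketoglutarate (minus strand of chromosome 17, 4937130 to 4940053), was at 38.3 to 44.9 TPM in untreated and 36.9 to 41.7 TPM in dox-treated Pa-Tu-8902. Its level in MIA PaCa-2 was 40.3 to 43.1 TPM without and 37.8 to 38.4 TPM with dox. Neither change passed (log2 fold change from counts -0.14, adjusted p = 0.194, and -0.18, adjusted p = 0.0516, edgeR). The Pa-Tu-8902 groups overlapped, and the MIA PaCa-2 groups did not.

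SLC25A22, the mitochondrial glutamate carrier (minus strand of chromosome 11, 790475 to 798281), rose in both lines. Its level was 36.0, 40.5 and 39.0 TPM in untreated Pa-Tu-8902 and 50.8, 58.5 and 57.1 TPM with dox. In MIA PaCa-2 it was 23.9, 26.2 and 27.4 TPM without and 38.5, 38.3 and 37.7 TPM with dox. The groups did not overlap in either line. Counts rose 1.36-fold in Pa-Tu-8902 (log2 fold change 0.44, standard error 0.08, adjusted p = 6.02e-04) and 1.40-fold in MIA PaCa-2 (log2 fold change 0.48, standard error 0.07, adjusted p = 2.97e-04), all from edgeR. The log2 fold changes of the lines differed by -0.04 (standard error 0.11, adjusted p = 0.854).

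The SLC25A22 gene has 31 annotated transcripts, and SLC25A22-228 and SLC25A22-201 carried most of its level. SLC25A22-201 went from 8.14 ± 1.20 to 15.9 ± 1.77 TPM in Pa-Tu-8902 and was the only transcript outside GOT1 called among those of the 10 genes (log2 fold change from counts 0.91, standard error 0.12, adjusted p = 0.00688, edgeR). SLC25A22-228 went from 24.6 ± 2.62 to 31.0 ± 4.14 TPM there (adjusted p = 0.380). In MIA PaCa-2, SLC25A22-201 was at 1.77 ± 0.55 and 3.06 ± 1.10 TPM (adjusted p = 0.271) and SLC25A22-228 at 20.7 ± 0.48 and 29.5 ± 0.59 TPM (adjusted p = 0.0310), so neither passed.

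ME1, the cytosolic NADP-dependent malic enzyme (minus strand of chromosome 6, 83210402 to 83431051), moved differently in the lines. In Pa-Tu-8902 its level was 24.1, 23.4 and 24.3 TPM without dox and 23.4, 22.8 and 24.6 TPM with dox. Its level in MIA PaCa-2 was 17.8, 14.5 and 17.3 TPM without and 11.7, 12.1 and 11.3 TPM with dox. The Pa-Tu-8902 groups overlapped, while every dox-treated MIA PaCa-2 library lay below every untreated one. The log2 fold change from counts was -0.10 in Pa-Tu-8902 (standard error 0.06, adjusted p = 0.157) and -0.54 in MIA PaCa-2 (standard error 0.06, adjusted p = 5.86e-05), a 1.46-fold fall, all from edgeR. The difference of 0.44 between the lines passed (standard error 0.09, adjusted p = 9.78e-04), and ME1 was the only one of the 10 genes for which it did. Among all 16544 genes, 16.9% passed this test without a fold limit. With the limit, 10.4% passed and none of the 10 genes did. The ME1 difference was as large on log2(TPM + 1) with limma (0.44) but did not pass there (adjusted p = 0.0144). The fall in MIA PaCa-2 passed under 15 of 16 settings and was likewise lost with limma (adjusted p = 0.0156).

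ME2, the mitochondrial malic enzyme (plus strand of chromosome 18, 50879080 to 50954257), was at 20.8, 21.99 and 20.3 TPM in untreated and 19.7, 18.6 and 18.2 TPM in dox-treated Pa-Tu-8902. In MIA PaCa-2 it was at 91.1, 71.1 and 84.1 TPM without and 83.7, 79.6 and 79.6 TPM with dox. The Pa-Tu-8902 groups did not overlap, and the counts fell 1.16-fold (log2 fold change -0.22, standard error 0.06, adjusted p = 0.00788, edgeR). This was the least stable of the changes that passed the adjusted p, since it passed under 6 of 16 settings, with adjusted p from 0.00539 to 0.113. It was lost when any 1 untreated library was left out, and when dox replicate 2 or 3 was. The MIA PaCa-2 libraries gave -0.07 (standard error 0.06, adjusted p = 0.347).

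The ratio of ME1 to ME2 was 1.14 ± 0.07 in untreated and 1.25 ± 0.08 in dox-treated Pa-Tu-8902 (two-sided exact permutation, p = 0.2). In MIA PaCa-2 it fell from 0.201 ± 0.006 to 0.145 ± 0.006 (SD, n = 3), a 1.39-fold drop with groups that did not overlap (two-sided exact permutation, p = 0.1).

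**Figure D3:**
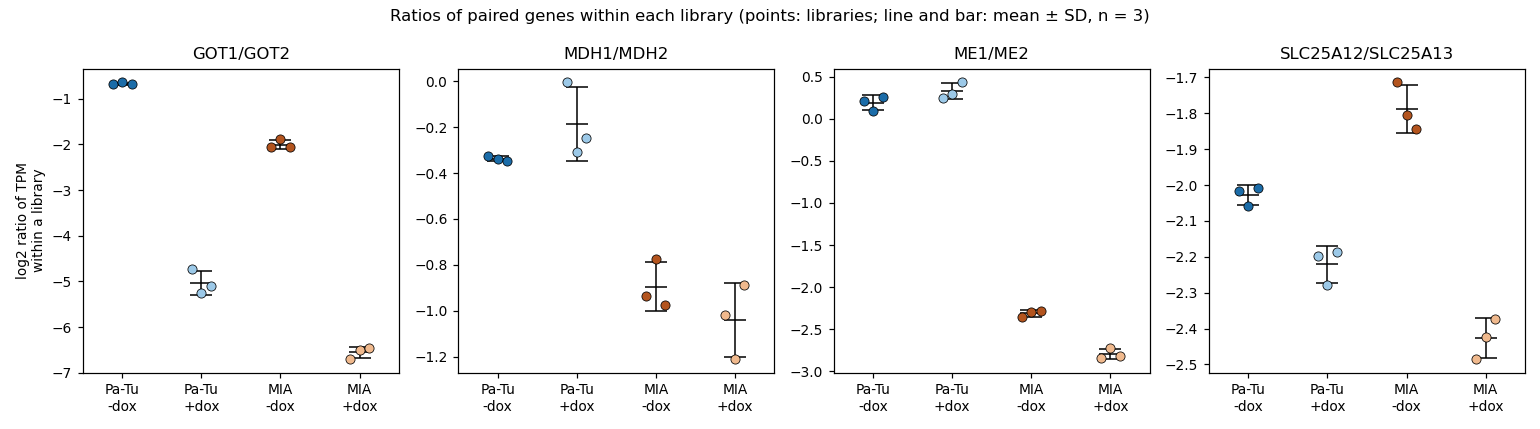
Log2 ratio of TPM within each library for GOT1/GOT2, MDH1/MDH2, ME1/ME2 and SLC25A12/SLC25A13; points are libraries, and the line and bar are the mean ± SD (n = 3). GOT1/GOT2 dropped 20.6-fold and 23.5-fold with dox, and the vertical axes of the other panels cover a smaller range.

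The lines differed at baseline in these genes. Of the 10, 3 were called between the untreated lines, where 58.1% of 15608 tested genes were called. Without the fold limit 6 passed, where 72.9% of all genes did. Nothing was read from these shares. Untreated Pa-Tu-8902 had more GOT1 than untreated MIA PaCa-2 (81.0 ± 2.59 against 41.9 ± 2.68 TPM, log2 fold change from counts 0.79, standard error 0.07, adjusted p = 2.74e-07, edgeR). It had less MDH2 (188 ± 4.25 against 286 ± 2.99 TPM, log2 fold change -0.65, standard error 0.08, adjusted p = 4.61e-06) and less ME2 (21.0 ± 0.89 against 82.1 ± 10.14 TPM, log2 fold change -2.06, standard error 0.07, adjusted p = 1.49e-11). The ME2 difference, 4.17-fold, was larger than any dox effect among the 10 genes except that on GOT1. The MDH2 call rested on the fold limit, since its log2 fold change was -0.52 without untreated Pa-Tu-8902 replicate 1 and -0.54 without replicate 2, both under 1.5-fold.

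Below the fold limit, GOT2 was lower in Pa-Tu-8902 (log2 fold change from counts -0.43, adjusted p = 1.42e-04), and without untreated Pa-Tu-8902 replicate 1 it no longer passed (adjusted p = 0.0106, edgeR). ME1 (0.50, adjusted p = 2.65e-05) and SLC25A22 (0.51, adjusted p = 5.29e-05) were higher in Pa-Tu-8902. Both went past the 1.5-fold limit without untreated Pa-Tu-8902 replicate 1 (0.60 for ME1 and 0.64 for SLC25A22) and without replicate 2 (0.63 and 0.62), the same libraries that decided the MDH2 call. MDH1 (-0.05, adjusted p = 0.592), SLC25A11 (0.07, adjusted p = 0.458), SLC25A12 (-0.27, adjusted p = 0.0125) and SLC25A13 (0.04, adjusted p = 0.614) did not pass. SLC25A12 passed under 3 of 16 settings, with upper-quartile factors (adjusted p = 0.00171), in 1 fit of all 12 libraries (0.00705) and without untreated MIA PaCa-2 replicate 2 (0.00138). Within libraries, the ratio of GOT1 to GOT2 was 2.52-fold higher, MDH1 to MDH2 1.47-fold higher and ME1 to ME2 5.65-fold higher in untreated Pa-Tu-8902, each with groups that did not overlap (two-sided exact permutation, p = 0.1 in each). Of ME1 and ME2 alone, ME1 was the higher in every Pa-Tu-8902 library and ME2 in every MIA PaCa-2 library. This pair leaves out ME3, also mitochondrial. In untreated Pa-Tu-8902 ME3 was at 46.1 ± 3.17 TPM, above ME1 at 23.9 ± 0.49 TPM.

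**Figure D4:**
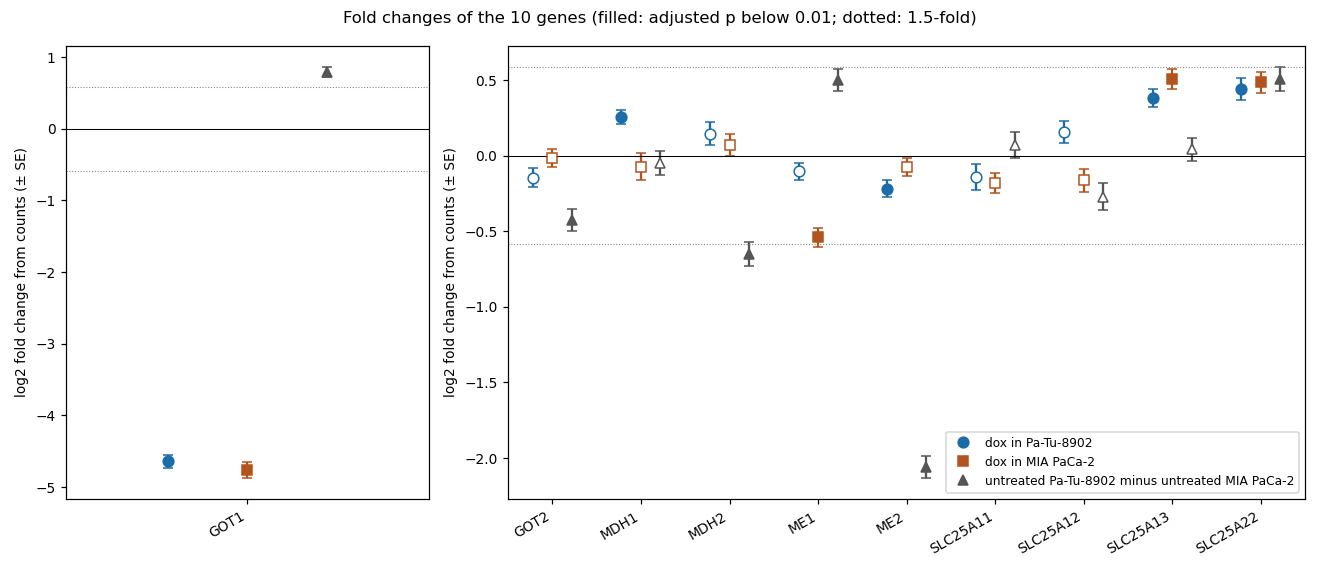
Log2 fold change from counts (vertical axis, ± standard error of the edgeR fit) of GOT1 (left) and of the other 9 genes (right, on a narrower scale) for dox in Pa-Tu-8902, dox in MIA PaCa-2 and untreated Pa-Tu-8902 minus untreated MIA PaCa-2; filled symbols passed adjusted p below 0.01 and dotted lines mark 1.5-fold. Outside GOT1 only ME2 (-2.06) and MDH2 (-0.65) between the untreated lines lay beyond the dotted lines.

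By level, MDH2, MDH1 and GOT2 were the highest in both lines. In untreated Pa-Tu-8902 the mean TPM fell in the order MDH2, MDH1, GOT2, GOT1, SLC25A11, SLC25A13, SLC25A22, ME1, ME2 and SLC25A12. The neighbours SLC25A11, SLC25A13 and SLC25A22 overlapped there, and all other neighbours were apart in every library. In untreated MIA PaCa-2 the order was MDH2, GOT2, MDH1, ME2, GOT1, SLC25A11, SLC25A13, SLC25A22, ME1 and SLC25A12, and GOT2 overlapped MDH1, and GOT1, SLC25A11 and SLC25A13 overlapped in turn. With dox, GOT1 went from rank 4 in Pa-Tu-8902 and rank 5 in MIA PaCa-2 to rank 10 in both, apart from the next gene, SLC25A12. SLC25A13 and SLC25A22 rose above SLC25A11 in mean TPM in both lines with dox, although SLC25A22 and SLC25A11 overlapped in MIA PaCa-2.

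Other genes of the same metabolism were grouped in 4 lists. Among 17 genes of the tricarboxylic acid cycle, all tested, 1 rose and 2 fell among the called genes in Pa-Tu-8902 and 3 fell in MIA PaCa-2, with median log2 fold changes of -0.11 and -0.17. The shares called over all tested genes were 16.3% and 12%, and no count of a list given here was tested against them. IDH3A, a catalytic subunit of the NAD-dependent isocitrate dehydrogenase, fell in both lines (log2 fold change from counts -1.20, adjusted p = 3.85e-08, and -0.66, adjusted p = 1.37e-05, edgeR). DLD, the dihydrolipoamide dehydrogenase shared by the 2-oxo acid dehydrogenases, also fell in both (-1.09, adjusted p = 4.52e-08, and -1.12, adjusted p = 3.22e-07). IDH2, the mitochondrial NADP-dependent isocitrate dehydrogenase, rose in Pa-Tu-8902 from 28.8 ± 3.16 to 61.0 ± 4.67 TPM (log2 fold change 1.05, adjusted p = 2.54e-06). SUCLA2, a subunit of succinyl-CoA ligase, fell in MIA PaCa-2 from 37.5 ± 4.30 to 19.9 ± 0.96 TPM (log2 fold change -0.97, adjusted p = 2.41e-06).

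Of 10 genes of cytosolic citrate metabolism, anaplerosis and glutamine use, 8 were tested in each line. In Pa-Tu-8902, 1 was called higher and 2 lower, and in MIA PaCa-2 1 was called lower, beside the same 16.3% and 12% of all tested genes. ACLY, which splits citrate into acetyl-CoA and oxaloacetate in the cytosol, fell in both lines (log2 fold change from counts -0.94, adjusted p = 1.45e-07, and -0.92, adjusted p = 1.61e-06, edgeR). IDH1, the cytosolic source of NADPH from isocitrate, rose in Pa-Tu-8902 from 61.9 ± 1.96 to 119 ± 11.31 TPM (log2 fold change 0.85, adjusted p = 2.39e-06), and stood at 39.8 ± 3.99 and 27.6 ± 0.59 TPM in MIA PaCa-2. There its log2 fold change of -0.57 passed the adjusted p (2.62e-05) and stayed under 1.5-fold. ASNS, which makes asparagine from aspartate, fell in Pa-Tu-8902 from 64.1 ± 0.49 to 31.8 ± 0.74 TPM (log2 fold change -1.11, adjusted p = 9.61e-08).

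Of 7 genes of the glycerol phosphate shuttle, the other route for cytosolic NADH, and of the lactate dehydrogenases, 4 were tested in Pa-Tu-8902 cells and 7 in MIA PaCa-2 cells. GPD2, the mitochondrial glycerol-3-phosphate dehydrogenase, was called lower in Pa-Tu-8902 from counts (log2 fold change -0.61, adjusted p = 3.48e-06, edgeR), while its TPM, which also uses the estimated length, was 25.9 ± 1.89 and 23.5 ± 3.84. In MIA PaCa-2 its log2 fold change of -0.56 stayed under the limit (adjusted p = 1.39e-04). GPD1L, a homologue of the cytosolic enzyme, fell in MIA PaCa-2 from 10.1 ± 1.69 to 4.64 ± 0.35 TPM (log2 fold change -1.14, adjusted p = 1.78e-06). LDHD fell (log2 fold change -1.07, adjusted p = 0.00252) and LDHB, near its detection limit with at most 39 counts in a library, rose (1.40, adjusted p = 0.00496) in MIA PaCa-2. LDHD too was low there, with 54 to 78 counts per library without dox and 27 to 31 with dox.

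Of 8 relatives and other mitochondrial carriers, 5 were tested in each line. SLC25A51, the mitochondrial NAD carrier, fell in Pa-Tu-8902 from 14.1 ± 1.61 to 7.99 ± 0.32 TPM (log2 fold change from counts -0.94, adjusted p = 2.51e-05, edgeR). In MIA PaCa-2 its log2 fold change of -0.57 passed the adjusted p (7.36e-04) and stayed under 1.5-fold. The difference between the lines did not pass for SLC25A51 (adjusted p = 0.0590 for the interaction). SLC25A21, an oxoadipate carrier, fell in MIA PaCa-2 (log2 fold change -0.89, adjusted p = 0.00268), and had 0 counts in all 6 Pa-Tu-8902 libraries. Its TPM in MIA PaCa-2 overlapped, at 1.46 to 4.98 without and 0.78 to 1.67 with dox. ME3, a further mitochondrial malic enzyme, was at 46.1 ± 3.17 TPM in untreated Pa-Tu-8902 and had at most 2 counts in any MIA PaCa-2 library. Counting ME3, malic enzyme transcripts in mitochondria were thus led by ME3 in Pa-Tu-8902 and by ME2 in MIA PaCa-2.

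Between the untreated lines, 10 of the 17 tested cycle genes were called, 5 in each direction, beside 58.1% of all tested genes. Of the other lists, 4 of 8 tested cytosolic and anaplerotic genes, 6 of 7 tested genes of the glycerol phosphate and lactate list and 4 of 6 tested relatives and carriers were called, and no difference from that background was tested. SDHC, a membrane subunit of succinate dehydrogenase (log2 fold change from counts -3.84, adjusted p = 1.15e-13, edgeR), SUCLG2, a subunit of succinyl-CoA ligase (-2.03, adjusted p = 2.20e-11) and PCK2, the mitochondrial phosphoenolpyruvate carboxykinase (-2.14, adjusted p = 1.46e-11), were lower in Pa-Tu-8902. SDHD, another subunit of succinate dehydrogenase (1.66, adjusted p = 1.26e-10), and PC, pyruvate carboxylase (1.69, adjusted p = 2.65e-10), were higher there. SLC25A1, the mitochondrial citrate carrier (-1.27, adjusted p = 3.48e-09), and ACLY (-0.68, adjusted p = 1.36e-06) were lower in Pa-Tu-8902. LDHB and SLC25A21 had 0 counts in every untreated Pa-Tu-8902 library and at least 10 and 83 in each untreated MIA PaCa-2 library. GPD1 and LDHC had at most 4 and 3 counts in untreated Pa-Tu-8902, against 10 to 18 and 24 to 37 in untreated MIA PaCa-2. ME3 had 0 counts in every untreated MIA PaCa-2 library. These genes passed the filter of 10 counts in 3 libraries only through the line where they were high. Their calls add nothing to these counts, and the list counts above include them.

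The genes whose pattern over the 12 libraries was most like that of GOT1 were sought among 13109 genes tested in both lines, by the root mean square difference of log2 normalized CPM (a count scaled by library size) centred within each line. NTSR1 (difference 1.13) and FAM81A (1.14) were nearest, followed by KLHL5 (1.22), LYPLA1 (1.25) and GNPDA1 (1.29). None fell as far as GOT1. The largest falls among these 5 were those of NTSR1 in Pa-Tu-8902 (log2 fold change from counts -3.79) and FAM81A in MIA PaCa-2 (-3.11). Libraries within a group share their treatment, so this likeness mainly describes the drop with dox in both lines.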

How the data were processed

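Human PDA cell line RNA-seq data were re-analysed from deposited tables. Per the labels and the study's methods, the authors trimmed reads (Trimmomatic 0.39), aligned them with STAR 2.5.2a through RSEM 1.3.1 with default parameters to GRCh38 and GENCODE release 29, and deposited expected counts, FPKM and TPM per gene and transcript for poly(A) libraries made with a directional kit. The deposited expected counts are unfiltered, and 5.34% of them were not whole numbers. The deposited TPM values were used for levels, ratios and shares, and FPKM were not used here. The exon structures and positions were those of GENCODE release 44 (also GRCh38), joined by Ensembl identifier.

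The 10 genes, the gene lists and the tests were chosen with earlier results of these data known. Rounded counts, scaled by TMM, entered the quasi-likelihood test of edgeR 4.0.16 (R 4.3.3), for genes or transcripts that reached 10 counts in 3 or more libraries of the fit. Each line was fitted alone for dox, the untreated libraries for the lines, and all 12 libraries for the interaction. A call required an adjusted p (Benjamini-Hochberg) under 0.01 together with a 1.5-fold change. Standard errors are the absolute log2 fold change over the square root of the F statistic. Ratios were tested by exact permutation (scipy). All 10 genes are named, then at most the 3 called genes of a list with the largest change in a comparison, and the 5 genes most like GOT1. Lists cover the cycle, cytosolic and anaplerotic genes, the glycerol phosphate shuttle with lactate dehydrogenases, relatives and carriers, and markers of epithelial, mesenchymal, leukocyte, endothelial and fibroblast cells.

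Alternatives were DESeq2 1.42.0, its size factors, upper-quartile factors, other filters and thresholds, effective lengths as offsets, limma 3.58.1 on log2(TPM + 1), a replicate block, 1 fit of all 12 libraries, and each library left out. Counting noise did not cover the differences between replicates (chi-square per degree of freedom 2.25 to 27.3). In simulated data edgeR recovered 99 of 100 genes changed 1 log2 unit in Pa-Tu-8902 among 14949, 95 in MIA PaCa-2 among 14589, 94 between the untreated lines among 15608 and 84 for the interaction among 16544. The changed genes averaged over 1 CPM, and the simulated spread followed the trend with level, not each gene's own spread. Lower levels and changes under 1 log2 unit were not simulated.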

Additional observations from a re-analysis of the deposited data

Results flagged for a closer look

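By the interaction test of edgeR, the effect of dox differed between the lines in ME1, the only one of the 10 genes. It also differed in 10 of the 38 tested genes of the other metabolic lists. Both were judged at an adjusted p below 0.01 with no limit on the size of the difference. Over all 16544 genes, 16.9% passed in this way and 10.4% with a difference of at least 1.5-fold. The counts of the lists were not tested against these shares. The difference, as the log2 fold change in Pa-Tu-8902 minus that in MIA PaCa-2, was 0.44 for ME1 (adjusted p = 9.78e-04), from -0.10 and -0.54. IDH1 (1.42, adjusted p = 6.46e-09) and IDH2 (1.35, adjusted p = 1.06e-07), the cytosolic and mitochondrial NADP-dependent isocitrate dehydrogenases, each moved in opposite directions in the lines. They rose in Pa-Tu-8902 (0.85 and 1.05) and their fold changes in MIA PaCa-2 were -0.57 and -0.29, which passed the adjusted p and stayed under 1.5-fold. SUCLA2 differed by 1.08 (adjusted p = 1.89e-07), from 0.10 in Pa-Tu-8902, which did not pass, and -0.97 in MIA PaCa-2. GPD1L differed by 0.62 (adjusted p = 6.69e-04), from -0.53 and -1.14, and ASNS by -0.62 (adjusted p = 2.71e-05), from -1.11 and -0.49. Apart from ME1, these 5 genes differed by over 1.5-fold, and 5 more passed below that size. They were IDH3A (-0.53, adjusted p = 1.23e-04), which fell in both lines, SUCLG2 (0.57, adjusted p = 7.64e-05), SDHC (0.50, adjusted p = 5.32e-04), GLUD1, the mitochondrial glutamate dehydrogenase (-0.49, adjusted p = 2.47e-04), and DLST, a subunit of the oxoglutarate dehydrogenase complex (-0.37, adjusted p = 0.00118).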

How the results depend on the processing

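The counts of the 10 genes called did not move by over 1.5 times under other normalizations, filters, DESeq2, limma, the replicate block or any library left out. Without the fold limit they went from 1 to 5 with dox in Pa-Tu-8902, from 1 to 4 in MIA PaCa-2, from 3 to 6 between the untreated lines and from 0 to 1 for the difference between the lines. For the latter, 2 genes passed the adjusted p alone (MDH1 and ME1) with DESeq2 and with no filter, and 0 with limma on TPM. Correlations over genes between libraries that share a replicate number were mixed, from -0.322 to 0.360. In Pa-Tu-8902, dox against untreated, they were 0.360, -0.304 and 0.251 for replicates 1 to 3. With that number as a block 1 GOT1 transcript was called in Pa-Tu-8902 cells and 0 in MIA PaCa-2 cells, against 2 in each. Leaving out 1 library gave 1 called transcript in MIA PaCa-2 every time. From expected counts instead of TPM, the log2 ratio of GOT1 to GOT2 changed by -4.78 with dox in MIA PaCa-2 and by 1.22 between the untreated lines, that of SLC25A12 to SLC25A13 was -0.31 between the untreated lines, and the share of GOT1-201 was 93.8% and 91.0% in Pa-Tu-8902 cells and 95.7% and 91.9% in MIA PaCa-2, without and with dox. This share rises because TPM divides by transcript length and GOT1-201 is the longest.

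Of 650 single values under an alternative, 615 kept direction and side of the adjusted p, 14 no longer passed, 5 newly passed and 16 reversed. No reversed value had passed. With limma they were GOT2 with dox in MIA PaCa-2 (0.039), SLC25A11 between the untreated lines (-0.027) and GOT1 for the difference between the lines (-0.18). Between the untreated lines, upper-quartile factors gave -0.018 for SLC25A11 and -0.046 for SLC25A13, and effective lengths gave -0.095 for SLC25A11. With 1 library left out at a time, the values ran from -0.064 to 0.019 for GOT2 and from -0.13 to 0.025 for MDH1 with dox in MIA PaCa-2, from -0.11 to 0.060 for MDH1 and from -0.051 to 0.16 for SLC25A13 between the untreated lines, and from -0.019 to 0.15 for SLC25A11 and from -0.086 to 0.047 for SLC25A22 for the difference between the lines. The causes were not tested. Depth limits GOT1-202, the divergent RNA and LDHB.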
